A study of Mus musculus with 4 samples.

Results

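Amino acid transporter genes were followed in mouse DFAT cells, the fibroblast-like cells that arise when mature fat cells lose their lipid in culture. The 62 genes were those of 18193 whose platform symbol places them in the solute carrier families Slc1, Slc3, Slc6, Slc7, Slc36, Slc38 and Slc43, and each was read by 1 to 7 probe sets, of which the brightest on average over the 4 arrays stood for the gene. Each of 4 groups had 1 single-colour Affymetrix array: cells transfected with an siRNA against Mkl1, cells transfected with a control siRNA, cells treated with Y-27632, which blocks the ROCK kinases that drive actomyosin contraction, and cells treated with DMSO, its solvent. All were grown in DMEM with serum, and the labels give no dose, duration, passage or replicate. The study set Y-27632 against DMSO and Mkl1 siRNA against control siRNA to look for functions among genes that differed. Of the 62 genes, 3 carry symbols of opposite-strand genes (Slc36a1os, Slc6a19os and Slc7a6os) and are not transporters, which leaves 59 transporter genes.

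Cells import amino acids through carriers with overlapping substrates. Some carry amino acids in with sodium or protons and fill the cell with small neutral amino acids and glutamine, and others, such as the Slc7a5 and Slc3a2 pair, exchange those for leucine and other large neutral amino acids. The amino acid supply is read by the kinase complex mTORC1 at the lysosome and by the kinase GCN2, which raises the transcription factor ATF4 and through it many transporter genes. Several members of the Slc6 family carry other molecules, among them neurotransmitters, taurine and creatine, and many Slc1 and Slc6 genes are known from neurons, glia, kidney or intestine.

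With 1 array per group no difference has a replicate check, so no p-value is given and each difference describes these arrays. Values are log2 RMA signals, and differences are log2 signal of the first group minus the second. A gene counted as measured when at least 1 array reached 5.69 (the median of all values), and a difference counted from 2-fold, which is 1 on the log2 scale. The array medians ran from 5.67 to 5.71. The targeted transcript, listed under its present symbol Mrtfa, had a signal of 7.70 with Mkl1 siRNA and 8.55 with control siRNA, a ratio of 0.554, and 8.18 with Y-27632 and 8.32 with DMSO. All 10 fibroblast and stromal markers examined were measured, and 9 of them were lower with Mkl1 siRNA than with control siRNA (median -0.30), while 8 were higher with Y-27632 than with DMSO (median 0.08). Endothelial, epithelial and skeletal myoblast markers were each measured for 1 of 5 genes, neuronal markers for 2 of 6, astrocyte markers for 2 of 4 and macrophage or leukocyte markers for 3 of 7. The 3 control probe sets of 18S ribosomal RNA differed by a median of -0.48 with Mkl1 siRNA, -0.48 with Y-27632 and 0.15 between the control arrays.

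Of the 62 genes, 35 (56.5%) exceeded the median of all values on at least 1 array, against 63.8% of all genes. The mean over the arrays exceeded it for 31 genes, and all 4 arrays reached it for 29. By family, 5 of 7 Slc1, 1 of 2 Slc3, 6 of 20 Slc6, 8 of 14 Slc7, 4 of 4 Slc36, 7 of 9 Slc38 and 3 of 3 Slc43 transporter genes were measured, and 1 of the 3 opposite-strand genes. Just inside the threshold were Slc1a7 with a highest signal of 5.82 and Slc36a3 with 5.94, and just outside it were Slc38a4 with 5.63 and Slc7a10 with 5.27. The 27 genes below the threshold on every array had signals of 2.52 to 5.63. Signals of different probe sets depend on their probes and were not ranked against each other.

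**Figure D1:**
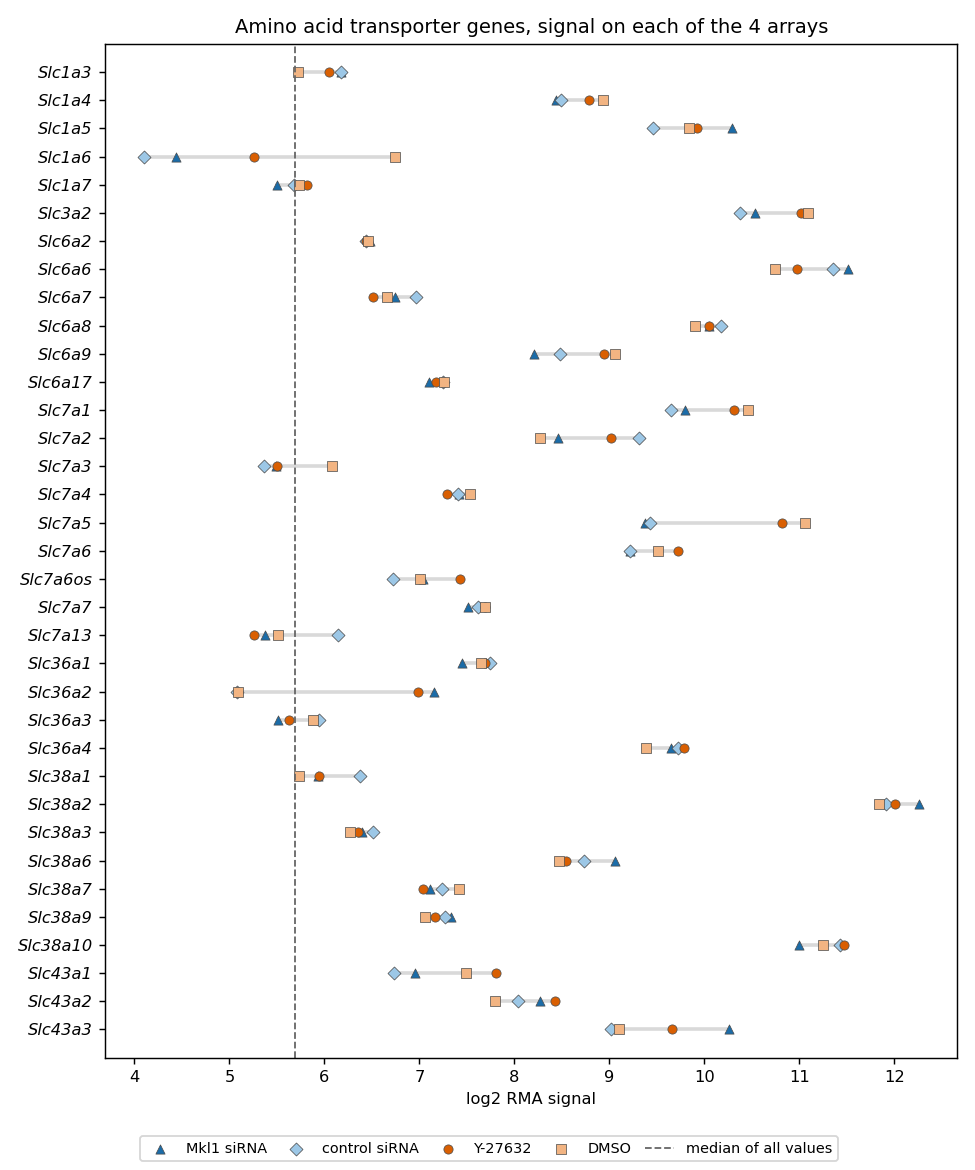
Log2 RMA signal (x axis) of the 35 measured genes (y axis) on each of the 4 arrays, 1 marker per array, with the median of all values as a dashed line. For Slc36a2 the Mkl1 siRNA (7.15) and Y-27632 (6.98) markers lie away from the control siRNA (5.08) and DMSO (5.09) markers, and for Slc7a5 the Mkl1 siRNA (9.37) and control siRNA (9.43) markers lie away from those of Y-27632 (10.82) and DMSO (11.06).

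Few transporter genes differed by 2-fold, and 1 did so in both treatment comparisons. With Mkl1 siRNA, Slc36a2 and Slc43a3 were at least 2-fold higher than with control siRNA (2 of 35 measured genes, against 1.79% of all 11600 measured genes), and 0 of 35 were at least 2-fold lower (against 1.74%). With Y-27632, Slc36a2 was at least 2-fold higher than with DMSO (1 of 35, against 1.27%) and Slc1a6 at least 2-fold lower (1 of 35, against 0.224%). Between the control arrays, Slc7a2 was at least 2-fold higher with control siRNA than with DMSO (1 of 35, against 0.957%) and Slc7a5 and Slc1a6 at least 2-fold lower (2 of 35, against 1.09%). Set against the other control array, Slc36a2, Slc7a5 (1.39), Slc1a6 (1.15) and Slc43a1 (1.08) stood at least 2-fold above control siRNA with Y-27632 (4 of 35, against 2.03%) and 0 were lower (against 0.75%). Mkl1 siRNA stood at least 2-fold above DMSO for Slc36a2 and Slc43a3 (2 of 35, against 2.73%) and below it for Slc1a6 (-2.31) and Slc7a5 (-1.69), 2 of 35 against 3.23%. With counts this small, 1 gene moves each share by several percentage points. In addition, Slc36a2 passed the threshold on low values only through the treated arrays and Slc1a6 only through the DMSO array. Their 2-fold calls therefore depend on the arrays that also let them count as measured.

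The measured members as a set lay near 0. Their median difference was -0.001 with Mkl1 siRNA, 0.083 with Y-27632 and -0.018 between the controls, where all measured genes had medians of 0.00, 0.00 and -0.01. The median size of the difference regardless of sign was 0.18 with Mkl1 siRNA, 0.21 with Y-27632 and 0.29 between the controls, against 0.19, 0.12 and 0.17 over all measured genes. The treatment comparisons share no array, and 19 of 35 members (54.3%) had the same sign in both, against 57.6% of all measured genes. In bulk RNA, fewer cells that express a gene and less of its RNA per cell cannot be told apart.

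**Figure D2:**
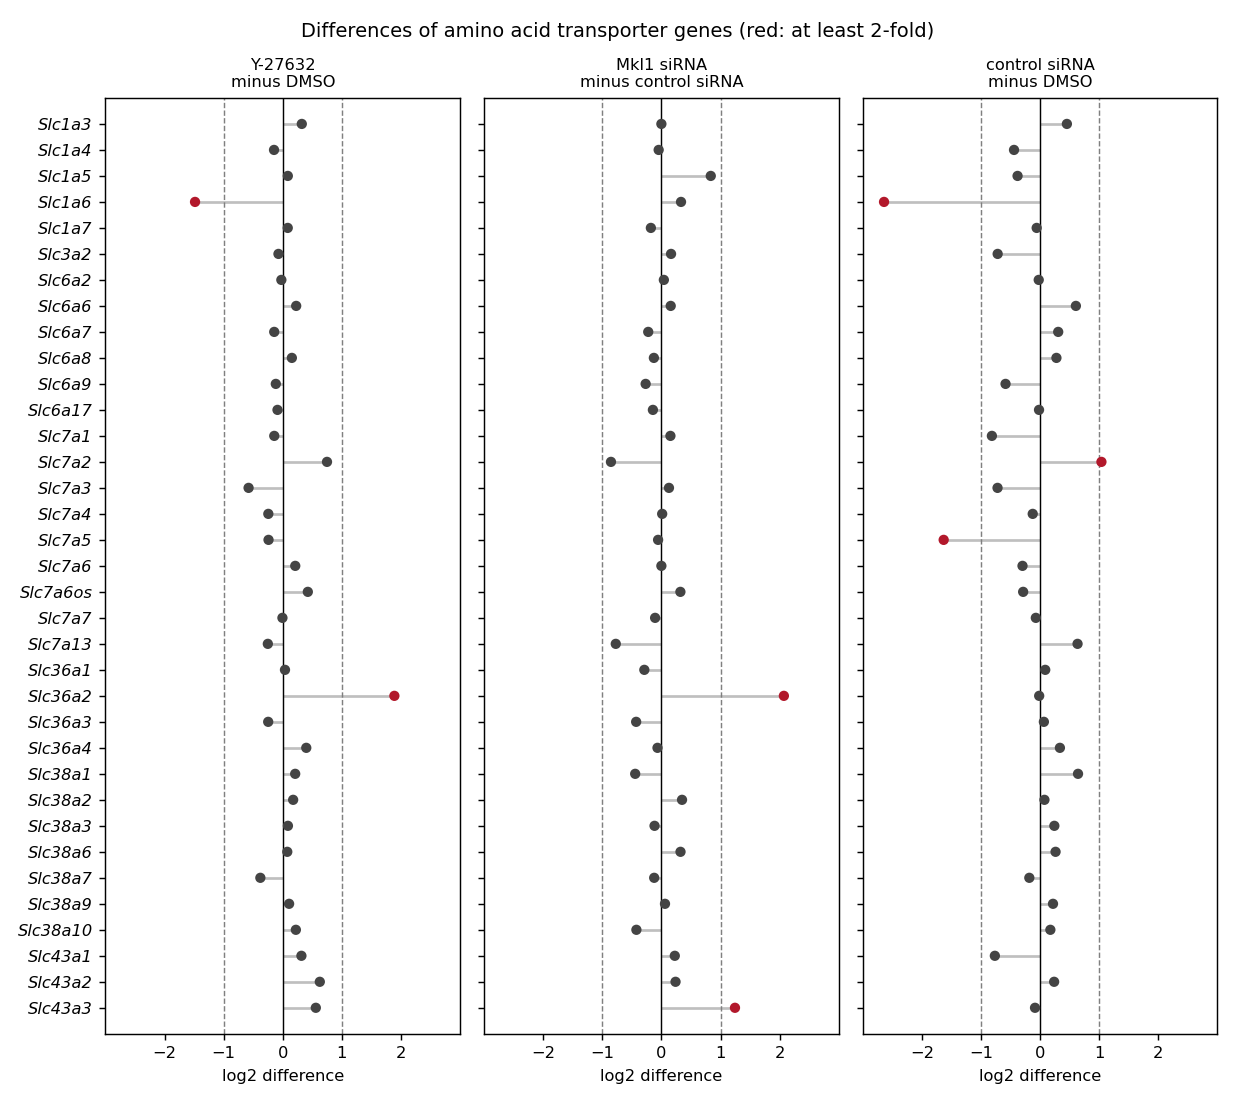
Log2 difference (x axis) of each of the 35 measured genes (y axis) in 3 panels, which show Y-27632 over DMSO on the left, Mkl1 siRNA over control siRNA in the middle and control siRNA over DMSO on the right, with dashed lines at 2-fold and red points at or past it. Red points mark Slc36a2 at 1.89 and Slc1a6 at -1.48 in the left panel, Slc36a2 at 2.07 and Slc43a3 at 1.24 in the middle, and Slc7a2 at 1.04, Slc7a5 at -1.63 and Slc1a6 at -2.64 on the right.

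Among the proton-coupled Slc36 carriers, Slc36a2, which imports glycine, alanine and proline and is known in mice as a surface marker of brown and beige fat cells, had the highest difference of all members in both treatment comparisons. Its signal was 7.15 with Mkl1 siRNA, 5.08 with control siRNA, 6.98 with Y-27632 and 5.09 with DMSO. The treated arrays were high and the control arrays low, and the control arrays differed by -0.015 (control siRNA minus DMSO). The difference of 2.07 with Mkl1 siRNA (a ratio of 4.20) ranked 36 from the top among 11600 measured genes, and that of 1.89 with Y-27632 (a ratio of 3.70) ranked 40. Set against the other control array, the differences were 2.06 and 1.90. In total 82 of 11600 genes (0.707%) were at least 2-fold higher in both treatment comparisons, and Slc36a2 was 1 of the 2 transporter genes past 2-fold with Mkl1 siRNA and the only such gene above DMSO with Y-27632.

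Slc36a2 passed the threshold on low values only through the treated arrays, and it was read by 1 probe set, so no second reading of the difference exists. Fat cell markers differed in the same arrays. Of 10 such markers 9 were measured, and all 9 were higher with Mkl1 siRNA than with control siRNA and with Y-27632 than with DMSO, 8 of them at least 2-fold in each comparison, with medians of 2.92 and 3.33. The summed linear signal of the 10 markers was 59819 with Mkl1 siRNA, 25438 with control siRNA, 56529 with Y-27632 and 24926 with DMSO. Their part in the Slc36a2 difference was not tested.

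The other Slc36 genes differed less. Slc36a1, a carrier of small neutral amino acids at the lysosome and the intestinal brush border, had signals of 7.45 with Mkl1 siRNA, 7.74 with control siRNA, 7.69 with Y-27632 and 7.65 with DMSO. Slc36a4, a proline and tryptophan carrier, had 9.65 with Mkl1 siRNA, 9.72 with control siRNA, 9.78 with Y-27632 and 9.38 with DMSO. For both genes all 4 arrays lay within 0.40 of each other. Slc36a3, known from testis, differed by -0.43 with Mkl1 siRNA and -0.25 with Y-27632, near the threshold on low values.

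**Figure D3:**
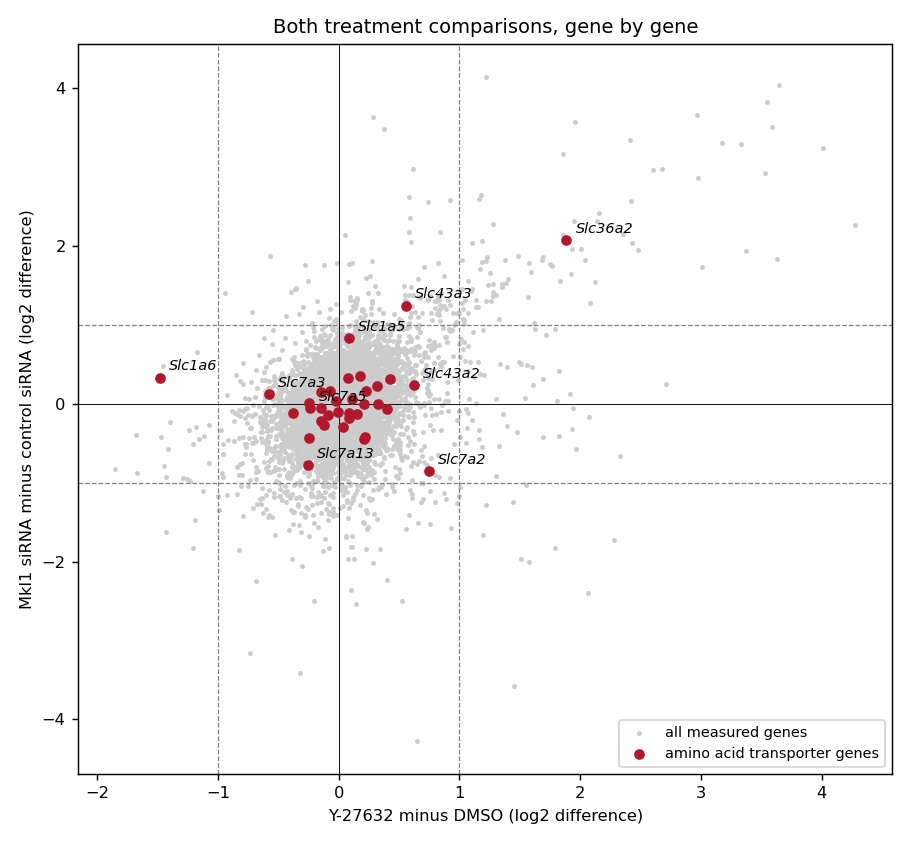
Log2 difference of Y-27632 minus DMSO (x axis) and of Mkl1 siRNA minus control siRNA (y axis) for all 11600 measured genes in grey and the 35 members in red, with dashed lines at 2-fold. Slc36a2 (1.89 and 2.07) is the only red point beyond 2-fold on both axes, Slc1a6 (-1.48 and 0.33) lies to the left, and most other members lie within 2-fold on both.

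The Slc43 family comprises uniporters. All 3 genes were above their control in both treatment comparisons. Of all measured genes, 50.1% were above control siRNA with Mkl1 siRNA and 50.4% above DMSO with Y-27632. The 57.6% with the same sign in both include genes lower in both. Slc43a3, which carries purine nucleobases and not amino acids, had signals of 10.26 with Mkl1 siRNA, 9.01 with control siRNA, 9.66 with Y-27632 and 9.10 with DMSO. The array with Mkl1 siRNA was the highest and that with Y-27632 the next, while the control arrays differed by -0.09. The differences were 1.24 with Mkl1 siRNA (a ratio of 2.37) and 0.56 with Y-27632, and 1.16 and 0.64 against the other control array, on 1 probe set.

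Slc43a2, a carrier of leucine and other large neutral amino acids, had signals of 8.27 with Mkl1 siRNA, 8.03 with control siRNA, 8.42 with Y-27632 and 7.80 with DMSO. Its difference with Y-27632 was 0.63, or 1.54-fold, and its 3 probe sets ran from -0.07 to 0.63. Slc43a1, a related carrier, had 6.95 with Mkl1 siRNA, 6.73 with control siRNA, 7.81 with Y-27632 and 7.49 with DMSO. Both transfected arrays were below both solvent-treated arrays for Slc43a1, and the control siRNA array differed from DMSO by -0.76. Set against control siRNA in place of DMSO, Slc43a1 was 1.08 higher with Y-27632.

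The pair formed by Slc7a5 and Slc3a2 differed with the control used and less with either treatment. Slc7a5, the light chain that exchanges leucine and other large neutral amino acids, had signals of 9.37 with Mkl1 siRNA, 9.43 with control siRNA, 10.82 with Y-27632 and 11.06 with DMSO. Slc3a2, the heavy chain that carries Slc7a5 and other light chains to the plasma membrane, had 10.54 with Mkl1 siRNA, 10.37 with control siRNA, 11.02 with Y-27632 and 11.09 with DMSO. For both genes the transfected arrays were low and the solvent-treated arrays high, with no overlap. The treatment differences were -0.06 and -0.24 for Slc7a5 and 0.16 and -0.07 for Slc3a2, with Mkl1 siRNA first and Y-27632 after it. Between the control arrays they were -1.63 (a ratio of 0.323) and -0.72, and Slc7a5 ranked 34 from the bottom of 11600 genes. Each gene was read by 1 probe set.

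Other light chains that pair with Slc3a2 lay closer together. Slc7a6, which exchanges cationic for neutral amino acids, had signals of 9.21 with Mkl1 siRNA, 9.21 with control siRNA, 9.72 with Y-27632 and 9.51 with DMSO. Slc7a7, a close relative, had 7.51 with Mkl1 siRNA, 7.62 with control siRNA, 7.69 with Y-27632 and 7.69 with DMSO. On the probe sets used, the transfected arrays were again below the solvent-treated arrays for both, by at most 0.51 between any 2 arrays. The second probe set of Slc7a7 did not follow this order. Slc7a8, a second exchanger of neutral amino acids, ran from 3.67 to 3.86 and Slc7a10, a carrier of small neutral amino acids known from fat cells, from 4.90 to 5.27, both below the median of all values on every array.

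Cationic amino acid transporters, which import arginine and lysine, differed in direction. Slc7a1, the broadly expressed member, had signals of 9.80 with Mkl1 siRNA, 9.65 with control siRNA, 10.32 with Y-27632 and 10.46 with DMSO. It followed the pattern of Slc7a5, with the transfected arrays low and a difference of -0.81 between the controls. Of its 3 probe sets 2 were near this value and the third, with signals of 3.70 to 4.07, was at 0.16.

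Slc7a2, the arginine carrier known from liver and activated macrophages, had signals of 8.46 with Mkl1 siRNA, 9.31 with control siRNA, 9.02 with Y-27632 and 8.27 with DMSO. Its differences had opposite signs in the treatment comparisons, -0.85 with Mkl1 siRNA (a ratio of 0.553) and 0.75 with Y-27632 (a ratio of 1.68). All 4 of its probe sets had these signs, from -0.90 to -0.17 with Mkl1 siRNA and from 0.19 to 0.75 with Y-27632. The control siRNA array was above DMSO by 1.04 (probe sets from 0.29 to 1.34), so that the differences against the other control array were 0.18 and -0.29, each with the sign turned. The mean of all probe sets put the control difference at 0.85, short of 2-fold.

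Slc7a3 reached the median of all values only with DMSO, at 6.08, and stood at 5.49 with Mkl1 siRNA, 5.36 with control siRNA and 5.50 with Y-27632. Slc7a4, a relative of the cationic carriers, differed by 0.01 with Mkl1 siRNA and -0.24 with Y-27632. Slc7a13, a kidney carrier of acidic amino acids, reached the threshold only with control siRNA, at 6.15, and differed by -0.77 with Mkl1 siRNA on 1 of its 2 probe sets. Slc7a6os, which shares the Slc7a6 locus on the other strand and encodes another protein, differed by 0.32 with Mkl1 siRNA and 0.42 with Y-27632, and its second probe set stood at 0.08 and -0.10.

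The Slc38 carriers of glutamine, alanine and other small neutral amino acids stayed within 2-fold in every comparison. At least 10908 of all 11600 measured genes did so in each comparison. Of the 7 measured Slc38 genes, 3 were above control siRNA with Mkl1 siRNA, against 50.1% of all measured genes. With Y-27632, 6 were above DMSO, against 50.4%. The medians were -0.12 and 0.11. Slc38a1, Slc38a2, Slc38a3, Slc38a9 and Slc38a10 also had probe sets below DMSO with Y-27632. Slc38a2, a sodium-coupled carrier that responds to amino acid shortage, had signals of 12.26 with Mkl1 siRNA, 11.91 with control siRNA, 12.01 with Y-27632 and 11.83 with DMSO. The Mkl1 siRNA array was the highest, and its 3 probe sets were 0.16 to 0.35 above control siRNA, while with Y-27632 they ran from -0.18 to 0.17.

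Slc38a1, a close relative, had 5.93 with Mkl1 siRNA, 6.37 with control siRNA, 5.94 with Y-27632 and 5.73 with DMSO, so that the control siRNA array was the highest. On its second probe set the control siRNA array was the lowest, at 4.49. Slc38a9, the lysosomal carrier that signals arginine to mTORC1, had 7.33 with Mkl1 siRNA, 7.27 with control siRNA, 7.16 with Y-27632 and 7.06 with DMSO, and its 7 probe sets differed in sign in each comparison. Slc38a7, which releases glutamine from lysosomes, was the only measured Slc38 gene below DMSO with Y-27632, at -0.38. Slc38a10 differed by -0.42 with Mkl1 siRNA and 0.22 with Y-27632, and Slc38a6 by 0.32 and 0.08. Slc38a4, another sodium-coupled carrier, missed the threshold on low values, with 4.80 with Mkl1 siRNA, 5.60 with control siRNA, 5.05 with Y-27632 and 5.63 with DMSO. Both treated arrays were below both control arrays for Slc38a4, by -0.81 and -0.58, and these were the lowest differences among the 27 genes that were not measured.

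In the Slc1 family, the neutral amino acid exchangers and the glutamate carriers were read separately. Slc1a5, the main glutamine exchanger of dividing cells, had signals of 10.29 with Mkl1 siRNA, 9.46 with control siRNA, 9.93 with Y-27632 and 9.84 with DMSO. The Mkl1 siRNA array was the highest and the control siRNA array the lowest. The difference with Mkl1 siRNA was 0.83 (a ratio of 1.78), its second probe set stood at 0.73, and against DMSO it was 0.45. Slc1a4, which exchanges alanine, serine and cysteine, had 8.44 with Mkl1 siRNA, 8.49 with control siRNA, 8.78 with Y-27632 and 8.93 with DMSO. Its transfected arrays were below its solvent-treated arrays, and its 3 probe sets were -0.66 to -0.44 between the controls.

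Slc1a6, a glutamate transporter known from Purkinje cells of the cerebellum, had signals of 4.43 with Mkl1 siRNA, 4.10 with control siRNA, 5.26 with Y-27632 and 6.74 with DMSO. DMSO was the only array above the median of all values. The difference with Y-27632 was -1.48 (a ratio of 0.357), 4 from the bottom of 11600 genes, and that between the controls was -2.64 (a ratio of 0.160), 9 from the bottom. Against control siRNA, Slc1a6 was higher with Y-27632, by 1.15, so the sign depended on the control array. It passed the threshold on low values only through the DMSO array, on 1 probe set.

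Slc1a3, the glial glutamate transporter, had 6.18 with Mkl1 siRNA, 6.18 with control siRNA, 6.04 with Y-27632 and 5.72 with DMSO on the probe set used, whose name marks it as one that may bind several transcripts. Its 6 probe sets ran from -0.04 to 0.995 with Mkl1 siRNA and from 0.04 to 0.82 with Y-27632. The probe set with the largest differences had 5.38 with Mkl1 siRNA, 4.38 with control siRNA, 4.71 with Y-27632 and 3.89 with DMSO. On that probe set the treated arrays were above the control arrays, at signals below the median of all values. Slc1a1, the neuronal and epithelial glutamate carrier, ran from 4.59 to 4.80 and was not measured. Slc1a7, a retinal glutamate transporter, differed by -0.18 with Mkl1 siRNA and 0.08 with Y-27632.

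Of the 20 Slc6 transporter genes, 14 were below the median of all values on every array, and the 6 measured stayed within 2-fold. At least 10908 of all 11600 measured genes also stayed within 2-fold in each comparison. Slc6a6, the taurine transporter, had signals of 11.51 with Mkl1 siRNA, 11.35 with control siRNA, 10.97 with Y-27632 and 10.74 with DMSO. On the probe set used, the transfected arrays were the high ones, opposite to Slc7a5, with a difference of 0.61 between the controls. The 4 probe sets of Slc6a6 ran from -0.05 to 0.61 there. Slc6a8, the creatine transporter, had 10.05 with Mkl1 siRNA, 10.17 with control siRNA, 10.05 with Y-27632 and 9.90 with DMSO. Slc6a9, a glycine transporter, had 8.21 with Mkl1 siRNA, 8.48 with control siRNA, 8.94 with Y-27632 and 9.06 with DMSO. Its transfected arrays were low, with a difference of -0.58 between the controls and -0.24 on its second probe set. Slc6a2, the noradrenaline transporter, Slc6a7, a brain proline transporter, and Slc6a17, a transporter of neuronal vesicles, differed by -0.22 to 0.04 in the treatment comparisons. Slc6a15, a neutral amino acid transporter of neurons, ran from 2.87 to 2.94.

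Between the control arrays, some carriers were lower and others higher with control siRNA than with DMSO. Both transfected arrays were below both solvent-treated arrays for 11 of the 35 measured members, against 24.2% of all measured genes. These were Slc1a6 at -2.64, Slc7a5 at -1.63, Slc7a1 at -0.81, Slc43a1 at -0.76, Slc3a2 at -0.72, Slc7a3 at -0.72, Slc6a9 at -0.58, Slc1a4 at -0.44, Slc7a6 at -0.30, Slc7a7 at -0.07 and Slc1a7 at -0.06, each as control siRNA minus DMSO. Both transfected arrays were above both solvent-treated arrays for 6 of the 35, against 21.9%, namely Slc1a3, Slc38a3, Slc38a6, Slc38a9, Slc6a6 and Slc6a7. Among the 11 members with low transfected arrays, Slc1a6 and Slc7a3 passed the threshold on low values only through the DMSO array. The second probe set of Slc7a7 and the weakest of Slc7a1 did not follow the pattern. Among the members with high transfected arrays, Slc1a3, Slc38a6, Slc38a9 and Slc6a6 also had probe sets that did not follow theirs. Slc38a2 differed by 0.07 between the controls. Over all 35 members the sign was mixed, with 16 higher and 19 lower. On the probe sets used, Slc7a2, Slc38a1, Slc7a13 and Slc6a6 were 0.61 to 1.04 higher with control siRNA. The lowest probe sets of Slc38a1, Slc6a6 and Slc7a13 stood at -0.14, -0.05 and 0.06. Between the same arrays the stromal markers Lum and Dcn differed by -4.28 and -2.07, and all 10 fibroblast and stromal markers had a median difference of -0.0043. The part of these markers in the carriers' differences was not tested. The transfected and the solvent-treated arrays differ in the agent given and may differ in other ways that the labels do not state, and these cannot be told apart.

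Promoter windows of 300 bases from RefSeq (GRCm38.p6), from 250 before to 50 after an annotated start, were found for 21 of the 35 measured genes, 31 windows in all. They were searched on both strands for TGATGNAA, the core of the composite element that ATF4 binds with C/EBP partners, and for the CArG box, the element bound by SRF, the partner of the Mkl1 protein. TGATGNAA was present in 3 of 31 windows (9.68%), against 3.97% of 32851 windows of all genes, and these belonged to Slc1a4 (1 window) and Slc7a7 (2 overlapping windows of its 5). The CArG box was in 0 of 31, against 1.63% of all windows, a share at which few matches can be looked for in 31 windows. Slc36a2, Slc43a3 and Slc7a5 were among the measured genes without a window, so neither element was searched for in them. The median GC content was 60.7% in the members' windows and 52.7% in all windows. The sequences below, up to 10 bases past the start, are shown for Slc1a4, whose match in capitals (the reverse complement of TGATGNAA) begins 4 bases before the annotated start, for Slc3a2, which was also lower with control siRNA, and for Slc1a6, the member with the largest control difference. They lie at chr11:20332704-20332963 (minus strand), chr19:8713888-8714147 (minus strand) and chr10:78780246-78780505 (plus strand). The match is a description of letters and not a measured binding site.
Slc1a4: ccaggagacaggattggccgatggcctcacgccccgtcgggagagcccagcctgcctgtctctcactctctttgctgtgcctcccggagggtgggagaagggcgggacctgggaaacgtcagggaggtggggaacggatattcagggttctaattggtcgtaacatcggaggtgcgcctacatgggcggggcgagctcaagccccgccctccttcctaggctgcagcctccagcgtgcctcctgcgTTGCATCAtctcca
Slc3a2: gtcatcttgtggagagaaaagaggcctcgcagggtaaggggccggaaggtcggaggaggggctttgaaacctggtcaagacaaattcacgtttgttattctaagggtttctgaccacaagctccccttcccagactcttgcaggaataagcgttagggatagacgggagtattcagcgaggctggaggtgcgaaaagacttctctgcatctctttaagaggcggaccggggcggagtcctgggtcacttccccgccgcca
Slc1a6: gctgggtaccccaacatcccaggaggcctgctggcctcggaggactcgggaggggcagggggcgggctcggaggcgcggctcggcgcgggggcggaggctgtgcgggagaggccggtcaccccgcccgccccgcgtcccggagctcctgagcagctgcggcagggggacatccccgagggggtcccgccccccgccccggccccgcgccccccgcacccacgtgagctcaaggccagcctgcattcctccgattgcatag

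Genes that sense, make and use amino acids were read beside the transporters. Of 25 measured genes of amino acid sensing, 0 differed by 2-fold in any of these comparisons. Per direction and comparison, 0.224% to 1.79% of all measured genes did, so few can be looked for among 25. The sensing genes had medians of -0.01 with Mkl1 siRNA, 0.01 with Y-27632 and 0.09 between the controls. The arginine sensor Castor1 differed by -0.68, its relative Castor2 by 0.51, Fnip2, a partner of folliculin, by -0.47 and the Rag GTPase Rraga by 0.39 with Mkl1 siRNA. With Y-27632 the sestrins Sesn3 and Sesn1 differed by 0.47 and 0.22, the lysosomal scaffold gene Lamtor4 by 0.22 and Castor1 by -0.17.

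Of 19 measured genes of amino acid synthesis and use, 2 were at least 2-fold higher and 1 lower with Mkl1 siRNA (against 1.79% and 1.74% of all measured genes), 1 higher with Y-27632 (against 1.27%), and 7 lower between the controls (against 1.09%), with medians of 0.21, -0.09 and -0.62. Glul, which makes glutamine from glutamate, had signals of 10.54 with Mkl1 siRNA, 9.22 with control siRNA, 10.18 with Y-27632 and 9.14 with DMSO. Like Slc36a2 it was high on both treated arrays, by 1.32 and 1.04. Cth, which makes cysteine, had 8.89 with Mkl1 siRNA, 6.76 with control siRNA, 9.52 with Y-27632 and 9.47 with DMSO, so that only the control siRNA array was low. Bcat1, the cytosolic branched-chain aminotransferase, differed by -1.10 with Mkl1 siRNA and -0.43 with Y-27632, Phgdh, the entry enzyme of serine synthesis, by 0.85 with Mkl1 siRNA, and Odc1 and Got1 by -0.36 and -0.34 with Y-27632. The 7 genes lower between the controls were Cth at -2.71, Phgdh at -1.74, Gpt2 at -1.43, Shmt2 at -1.38, Asns at -1.11, Psat1 at -1.11 and Mthfd2 at -1.03. Every probe set of Phgdh, Asns and Psat1 was at least 2-fold lower, and Cth had 1 probe set. Those of Shmt2 ran from -1.38 to 0.42, of Gpt2 from -1.43 to -0.79 and of Mthfd2 from -1.03 to -0.96.

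Of 19 measured aminoacyl-tRNA synthetases, which load tRNAs with amino acids, 0 differed by 2-fold. Per direction and comparison, 0.224% to 1.79% of all measured genes did. The synthetases had medians of 0.03 with Mkl1 siRNA, -0.13 with Y-27632 and -0.50 between the controls. Control siRNA was below DMSO for 18 of the 19, and for 5959 of all 11600 measured genes (51.4%). The largest treatment differences were Cars at -0.45, Nars at -0.34, Farsb at 0.31 and Vars at -0.29 with Mkl1 siRNA, and Aars, Vars and Sars at -0.29 and Kars at -0.24 with Y-27632.

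Among 13 measured amino acid carriers of other families, 2 were at least 2-fold higher with Mkl1 siRNA and 0 lower (against 1.79% and 1.74% of all measured genes). With Y-27632 or between the controls 0 passed 2-fold, against 0.224% to 1.27% of all measured genes in each direction. Slc16a10, a carrier of aromatic amino acids, had signals of 7.78 with Mkl1 siRNA, 6.19 with control siRNA, 6.97 with Y-27632 and 6.74 with DMSO. Mfsd12, a lysosomal cysteine importer, had 8.08 with Mkl1 siRNA, 6.74 with control siRNA, 7.75 with Y-27632 and 7.08 with DMSO. The Mkl1 siRNA array was the highest for both, by 1.59 and 1.34 above control siRNA. The 4 probe sets of Slc16a10 ran from 0.14 to 1.59 in this comparison, and Mfsd12 was read by 1. The mitochondrial aspartate-glutamate carrier Slc25a12 differed by -0.76 and the mitochondrial branched-chain amino acid carrier Slc25a44 by -0.11 with Mkl1 siRNA. The 3 probe sets of Slc25a44 ran from -0.11 to 0.38 in this comparison. With Y-27632, Slc25a15, the ornithine carrier, and Slc25a44 differed by 0.23 and 0.20.

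**Figure D4:**
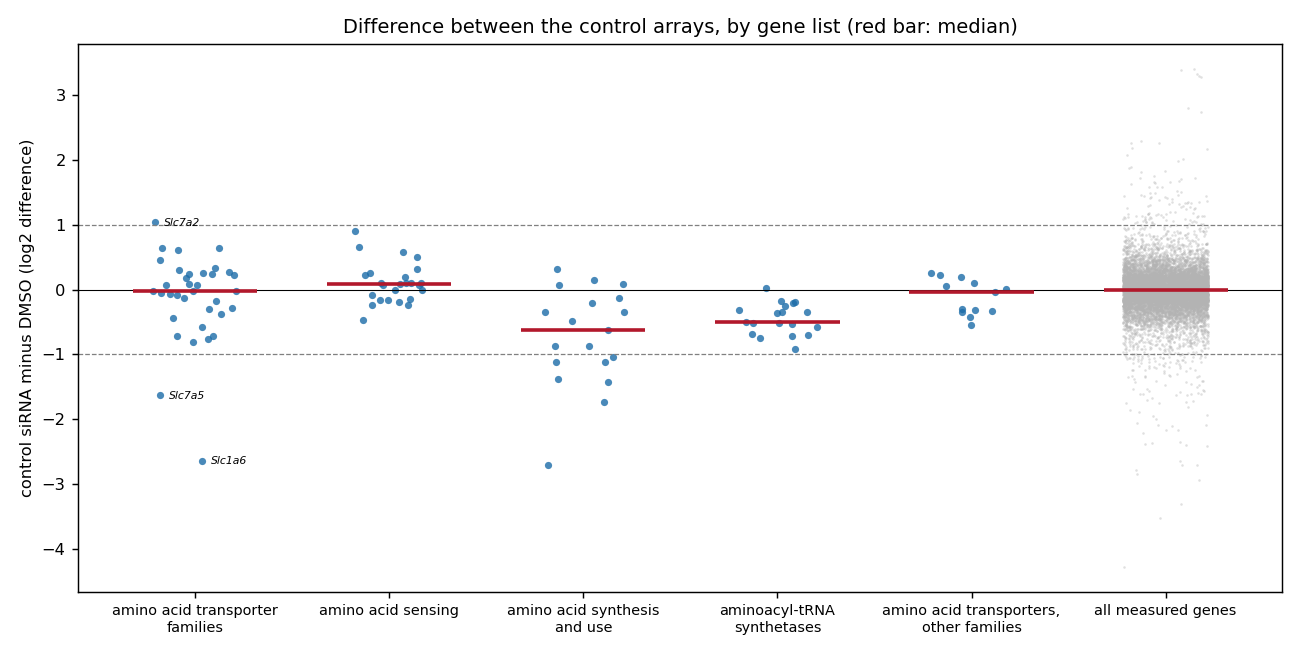
Log2 difference of control siRNA minus DMSO (y axis) for the 35 measured transporter family genes, the 4 further amino acid gene lists and all 11600 measured genes, 1 point per gene, with the median as a red bar and dashed lines at 2-fold. The medians of amino acid synthesis (-0.62) and aminoacyl-tRNA synthetases (-0.50) lie below 0, while the transporter families (-0.02) spread to both sides from Slc1a6 at -2.64 to Slc7a2 at 1.04.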

How the data were processed

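RNA of mouse DFAT cells was read on 4 Affymetrix arrays, 1 for each labelled group. The authors deposited log2 signals per probe set. The submitters' processing notes name RMA (background correction, quantile normalisation, probe set summary) without a version. That the scale is log2 follows from the range of 2.02 to 14.6. RMA compresses differences of weak genes.

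Of 45101 probe sets, 34945 with 1 gene symbol were named through the platform annotation and a GRCm38.p6 gene table. Members were matched by platform symbol, and 1 further gene of these families is not reported here. For each gene the probe set with the highest mean was used (pandas 2.3.3, numpy 2.4.6), and 11600 of 18193 genes were measured. Named genes were members past 2-fold in a comparison, a list of well-known carriers, and up to 4 genes per further list and treatment comparison. The members listed by whether transfected and solvent-treated arrays overlap, and the genes lower between the controls, were named after their values were seen. Members and lists were chosen with earlier results of these data known. With 1 array per group there was no test. Calculations were tested on simulated data. Alternatives were other probe set choices, filters, normalisations (loess, span 0.3, statsmodels 0.14.6), a 1.5-fold threshold and the other control array. Removing opposite-strand genes was added after seeing the data.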

Additional observations from a re-analysis of the deposited data

How the results depend on the processing

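Each result was recomputed with 1 choice changed at a time. No paired analysis was possible because each group had 1 array. Slc36a2 stayed at least 2-fold higher in both treatment comparisons under every alternative that kept it, but it is below the 75th percentile filter. With its 1 probe set, its differences could not change with probe set choices, filters, the 1.5-fold threshold or the removal of opposite-strand genes. Only the normalisations and the other control array could move them. Of 35 genes above the median of all values, 16 reached the 75th percentile, where the 2-fold counts were 0 higher and 0 lower with Y-27632, 1 higher with Mkl1 siRNA and 1 lower between the controls. With the filter on the mean, 0 were lower with Y-27632 and 1 lower between the controls, since Slc1a6 drops out. With the mean of all probe sets, 0 were higher between the controls, since Slc7a2 stood at 0.85. The counts with changed filters or averaged probe sets stand without a share of all genes. Without a filter, over 62 genes, the Y-27632 median was -0.023. At 1.5-fold, 3 of 35 were higher with Y-27632 (against 348 of all 11600 measured genes) and 2 lower with Mkl1 siRNA (against 686). Between the controls 4 were higher (against 397) and 6 lower (against 475). With the other control array, 4 were higher and 0 lower with Y-27632, against 2.03% and 0.75% of all measured genes. With Mkl1 siRNA set against DMSO, 2 were lower, against 3.23%, and the median was -0.11. Slc1a6 reversed with Y-27632 set against control siRNA, to 1.15 against -1.48. The cause of the shifts with the other control array was not tested. Leaving out probe sets that may bind several transcripts, median subtraction, loess and leaving out the opposite-strand genes kept every count within 1.5 times its main value and every median within 0.1. Slc3a2 and Slc7a7 have no other probe sets and gave no value without them. Slc36a2, Slc1a6, Slc1a7, Slc36a3, Slc7a3 and Slc7a13 were below the median of all values on 2 or 3 of the 4 arrays. This limits what can be read of them, as does the single array per group.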
